A study of Bos taurus with 106 samples.

Results

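FSTL3, CD109 and ID1 act around the transforming growth factor beta (TGF-beta) family of signals, and their hepatic transcripts were followed here across the dry period and early lactation of dairy cows. The 3 genes were selected by symbol in the platform's gene annotation, because their measured ratios stood out when days were compared. Each gene had 1 array element, printed as 2 spots, so the group holds 3 of the 5598 elements that carried a single gene symbol and 3 of the 8061 elements tested. FSTL3 (Entrez gene 515367), CD109 (534043) and ID1 (497011) are protein-coding genes of the bovine genome, and all 3 had a value in 53 of 53 liver samples. Because changes between days chose these genes, their differences between days are given as a description without a test, and only comparisons between diets are tested for them.

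Liver came from 8 Holstein cows, sampled in the dry period and after calving. Before calving, over a dry period of 65 days, they received the same moderate-energy diet (1.60 Mcal/kg) at 2 levels of feeding. The restricted group of 4 cows took in about 80% of the NRC requirement, and the ad libitum group of 4 cows about 120%. Samples were taken on days -65, -30, -14, 1, 14, 28 and 49 relative to calving, with 4 cows per diet and day except for the ad libitum group on day -65 (3 cows) and on day 49 (2 cows). The sources used here do not give the cows' parity, age or diet after calving. No group was untreated, and the samples of day -65 serve as the earliest point of comparison. With a dry period of 65 days, day -65 lies at its start. Differences between the diet groups on that day may precede any action of the feeding levels. Each sample was labelled in Cy3 on one array and in Cy5 on another, each time against a reference RNA mixed from tissues other than liver, and both arrays were averaged to 1 value. All values are log2 ratios of liver over that reference, centred on each array's median. A value of 0 means the ratio of the median element, and a negative value means a ratio below it. A change in such a ratio is a change relative to the median element of the array.

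TGF-beta family ligands, among them the TGF-betas, activins and bone morphogenetic proteins (BMPs), bind paired type I and type II receptor kinases, which phosphorylate SMAD proteins that then enter the nucleus. FSTL3 is a secreted follistatin-like glycoprotein that binds activins and myostatin and keeps them from their receptors. CD109 is a GPI-anchored surface protein of the alpha-2-macroglobulin family that binds TGF-beta as a co-receptor and dampens its signalling. ID1 is a helix-loop-helix protein without a DNA-binding region that is induced through BMP receptors and SMADs and sequesters E proteins. In liver this family is known for its action on matrix production by stellate cells, on hepatocyte growth arrest and, through BMP signals, on iron balance.

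FSTL3, CD109 and ID1 followed a common course of low ratios early in the dry period, higher ratios on days -14, 1 and 14, and low ratios again from day 28. On those 3 days the mean of ID1 stayed between -0.50 and -0.18. The means of FSTL3 were -0.51, -0.88 and -1.34, and those of CD109 -0.29, -0.73 and -0.89. By the limma estimates FSTL3 was 4.51-fold higher on day -14 than on day -65, CD109 3.75-fold and ID1 2.91-fold, in 7 of 7 cows sampled on both days for each gene. From day -14 to day 28 FSTL3 was 3.74-fold lower, CD109 3.06-fold lower and ID1 3.43-fold lower, in 8 of 8 cows each. These are the differences on which the genes were chosen. Of all elements tested, 17.9% were called higher and 13.8% lower on day -14 than on day -65 (limma, adjusted p under 0.05), and on day 28 against day -14 10.5% were called higher and 12.6% lower. FSTL3, CD109 and ID1 ranked 5, 9 and 24 among 8061 elements by size of the increase, and 8, 13 and 10 by size of the decrease. In bulk liver, fewer cells of a type and less RNA per cell cannot be told apart.

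**Figure D1:**
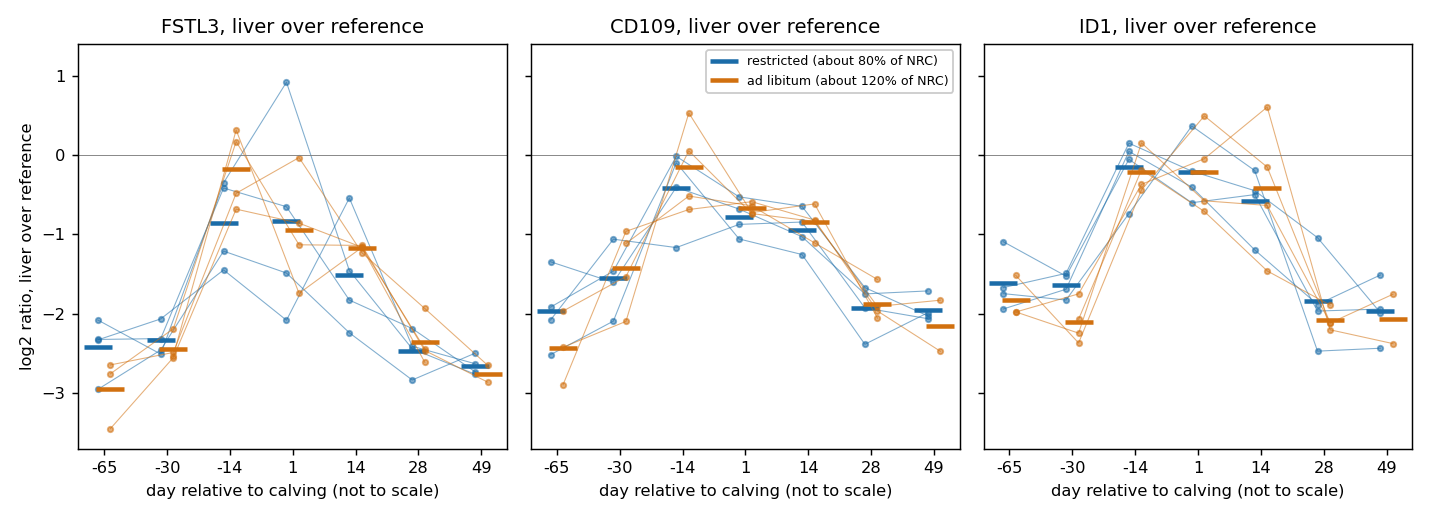
Log2 ratio of liver over reference (vertical axis) on each sampling day relative to calving (horizontal axis, evenly spaced) for FSTL3, CD109 and ID1. Each thin line and its points are 1 cow, blue for restricted and orange for ad libitum feeding, and thick bars are group means; the FSTL3 values of day -65 span -3.45 to -2.08 and those of day -14 span -1.45 to 0.32.

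FSTL3, the activin-binding member, had log2 ratios of -3.45 at the lowest, -2.64 at the median and -2.08 at the highest among 7 cows on day -65. On day -30 the lowest, median and highest of 8 cows were -2.55, -2.47 and -2.06, a narrow spread. By day -14 they had moved to -1.45, -0.45 and 0.32, so every cow lay above every cow of the 2 earlier days. As a plain ratio relative to the median element, reference over liver was 6.26 on day -65 and 1.43 on day -14. Without centring the mean log2 ratios of liver over reference were -3.26 and -0.67.

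After calving FSTL3 spread widely before it returned to its early level. On day 1 it was -2.08 at the lowest, -0.99 at the median and 0.92 at the highest, and on day 14 -2.24, -1.20 and -0.54. Day 28 brought values of -2.83, -2.44 and -1.93, and on day 49 the 6 cows lay between -2.86 and -2.50 with a median of -2.69. Of the 24 values of days -14, 1 and 14, 22 exceeded every one of the 29 values of the other days. The pair that did not were those of cow 6877 on day 1 (-2.08) and of cow 6952 on day 14 (-2.24), both restricted. Between adjacent day means in order of level (-14, 1, 14, -30, 28, -65, 49), a single gap exceeded the pooled SD of the 2 days, that from day 14 to day -30 (1.04 against an SD of 0.38). By the limma estimate, the difference of day 49 from day -65 was -0.03 ± 0.30 (SE).

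CD109, the TGF-beta co-receptor, stood at an intermediate level on day -30. It had a lowest, median and highest log2 ratio of -2.89, -2.08 and -1.34 on day -65 and of -2.09, -1.50 and -0.96 on day -30. The mean difference of these days was 0.70 ± 0.19 (SE), and it was positive in 6 of 7 cows. FSTL3 differed by 0.30 ± 0.27 (SE) over the same interval, and ID1 by -0.15 ± 0.22 (SE). The difference of CD109 from the other 2 genes in this interval was not tested.

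On day -14 CD109 reached -1.17, -0.25 and 0.53 (lowest, median and highest). Relative to the median element, its plain ratio of reference over liver was 4.47 on day -65 and 1.22 on day -14. Its mean log2 ratios without centring were -2.78 and -0.44. On day 1 the 8 cows lay close together at -1.06, -0.70 and -0.53, and on day 14 at -1.25, -0.84 and -0.62. On day 28 the values were -2.38, -1.92 and -1.57, with all cows below every value of days -14, 1 and 14. On day 49 they were -2.47, -2.01 and -1.71. Of the 24 values of days -14, 1 and 14, 19 exceeded all 29 others, and the overlap came from day -30, whose highest value was -0.96. In order of level (-14, 1, 14, -30, 28, 49, -65), gaps larger than the pooled SD lay between days -14 and 1 (0.44 against 0.39), days 14 and -30 (0.60 against 0.35) and days -30 and 28 (0.41 against 0.36).

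ID1, the BMP-induced member, was low through day -30 and near the median element on days -14 and 1. Its lowest, median and highest log2 ratios were -1.98, -1.74 and -1.09 on day -65 and -2.37, -1.79 and -1.49 on day -30. They were -0.74, -0.12 and 0.15 on day -14, an increase of 1.69 ± 0.21 (SE) from day -30 seen in 8 of 8 cows. ID1 held this level on day 1, with values of -0.71, -0.30 and 0.49, and its mean differed from that of day -14 by -0.03 ± 0.21 (SE).

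On day 14 the spread of ID1 widened to -1.46, -0.47 and 0.61, both ends being ad libitum cows (7050 and 7161). By day 28 it was -2.47, -2.04 and -1.04, lower than on day 14 in 8 of 8 cows, and on day 49 -2.43, -1.96 and -1.51. In order of level (-14, 1, 14, -65, -30, 28, 49) only the gap between days 14 and -65 exceeded the pooled SD (1.20 against 0.52). Of the 24 values of days -14, 1 and 14, 22 exceeded all 29 others. The other 2 belonged to cows 7050 and 6952 on day 14, at -1.46 and -1.19, and the highest value of the remaining days was that of cow 7105 on day 28 (-1.04).

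From day -14 to day 1, across calving, the 3 genes differed by -0.37 ± 0.26 (SE; FSTL3), -0.44 ± 0.18 (CD109) and -0.03 ± 0.21 (ID1). Each was lower on day 1 in 5 or 6 of 8 cows. Over all elements 0.298% were called higher and 0.0992% lower in this comparison. The steep descent came later, between days 14 and 28, where the differences were -1.07 ± 0.26, -1.01 ± 0.18 and -1.46 ± 0.21 (SE) in the same order, each in 8 of 8 cows.

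The 3 days of higher ratios were also the days on which the 2 dye orientations of a sample differed most. The correlation of both orientations across elements averaged 0.485 (SD 0.181, n = 24) on days -14, 1 and 14, against 0.688 (SD 0.081, n = 29) elsewhere. Ratios also leaned toward 0, here called compression. The slope of the element means on those of day -65 was 0.818, 0.748 and 0.833 on days -14, 1 and 14 and between 0.936 and 0.944 on days -30, 28 and 49. The correlation of these means with those of day -65 was also lower, at 0.896, 0.882 and 0.937 against 0.973 to 0.977. A weaker correlation lowers such a slope too, and its part was not separated. The 373 elements whose mean was under -1.5 on day -65, the 3 genes among them, moved from an average of -2.19 to -1.63 on day -14. Their median difference was 0.50, and from the 10th to the 90th percentile the differences covered 0.00 to 1.16. The differences of FSTL3 (2.17 ± 0.27, SE), CD109 (1.91 ± 0.19) and ID1 (1.54 ± 0.22) lay beyond that range, and 3, 7 and 14 of these elements moved further. The genes were chosen on their differences between days, so this position follows from the choice and is not a test. The part of the orientation differences and of the compression in the members' course was not tested.

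**Figure D2:**
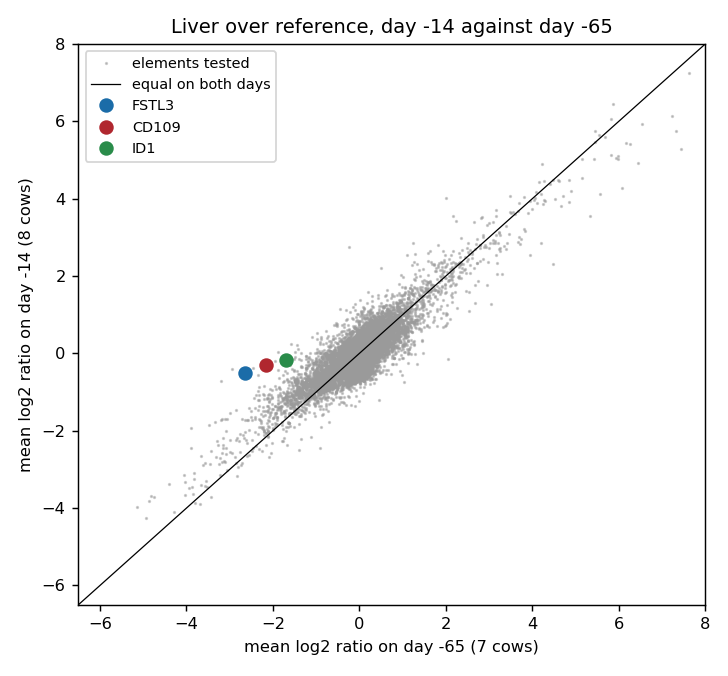
Mean log2 ratio of liver over reference on day -65 (horizontal axis, 7 cows) against day -14 (vertical axis, 8 cows), with 1 grey point per element tested and a line where both days are equal. FSTL3, CD109 and ID1 lie above the line and above most elements that started as low, and elements at both ends of the horizontal axis lean toward 0 on day -14, with a slope of 0.818.

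The rise and the descent were present in each dye orientation alone, with unequal sizes. With liver in Cy3, FSTL3 was higher on day -14 than on day -65 by 1.80 ± 0.72 (SD, n = 7), CD109 by 1.87 ± 0.70 and ID1 by 1.95 ± 0.64. With liver in Cy5 the differences were 2.23 ± 1.26, 1.95 ± 0.88 and 1.09 ± 0.62. All 7 cows were higher in each case. Between days -14 and 28 ID1 differed by -2.36 ± 0.33 (SD, n = 8) in Cy3 and by -1.20 ± 0.57 in Cy5, and CD109 by -1.97 ± 0.84 and -1.26 ± 0.76. FSTL3 differed by -1.67 ± 0.98 and -2.13 ± 1.26, and all 8 cows were lower on day 28 for each gene and dye.

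The dye of the liver sample moved the members' values by different amounts on different days. CD109 read 1.12 lower in Cy5 than in Cy3 on average over days -14, 1 and 14 (SD 0.83, n = 24). On day -65 it read 0.71 lower in Cy5, nearly as much as on day -14 (0.73), and on days -30 and 49 it read higher in Cy5 by 0.36 and 0.25, so that the other days together averaged -0.03 (SD 0.66, n = 29). ID1 read lower in Cy5 by 0.71 (SD 0.65) on days -14, 1 and 14 and higher by 0.30 (SD 0.25) on the others. FSTL3 had a mean difference of 0.41 with an SD of 1.32 on the 3 days and of 0.20 with an SD of 0.42 elsewhere, and on day 14 alone it was -0.06. Some of its highest averages rested on 1 orientation. Cow 7045 on day 1, the highest FSTL3 value at 0.92, read -0.53 in Cy3 and 2.37 in Cy5, and cow 7050 on day -14 read -1.27 and 1.91.

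**Figure D3:**
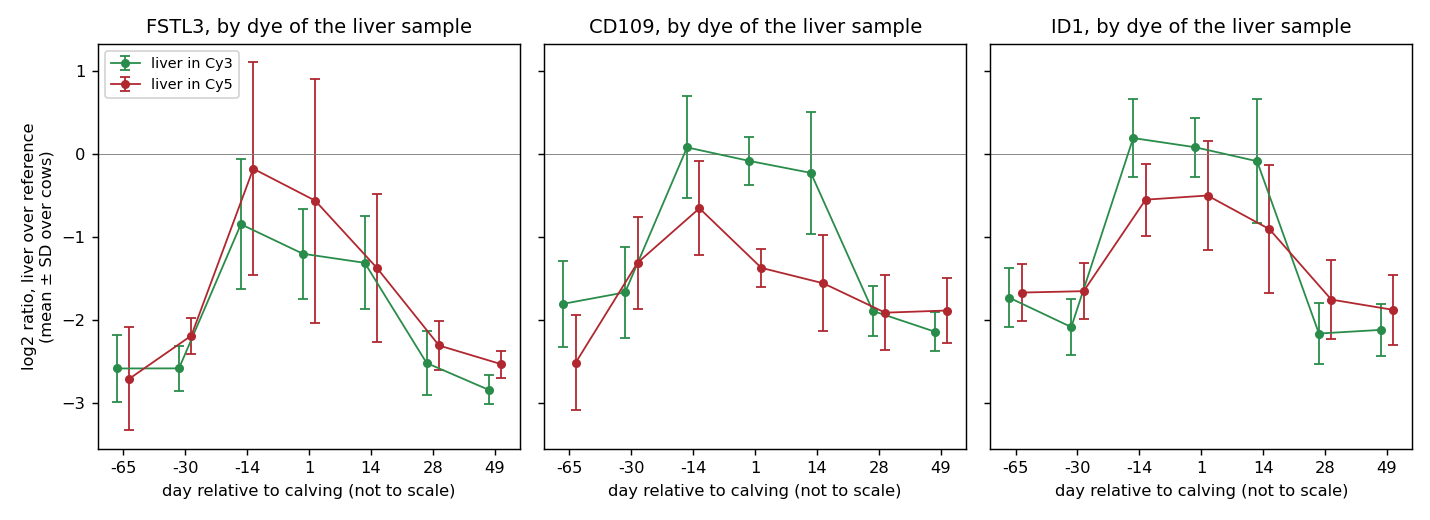
Log2 ratio of liver over reference (vertical axis) by day relative to calving (horizontal axis, evenly spaced) for each gene, with liver labelled in Cy3 (green) or in Cy5 (red). Points are means and bars are SD over 6 to 8 cows; CD109 on day 14 averages -0.23 in Cy3 and -1.56 in Cy5, and both dyes place all 3 genes higher on day -14 than on day -65.

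The feeding level was compared within days, over the period before calving and over the period after it, none of which the selection used. No member passed in any of 11 tests (limma, Benjamini-Hochberg over 8061 elements, two-sided). In the mean of days -30 and -14, FSTL3 was -1.30 ± 0.29 (SD, n = 4) in ad libitum and -1.59 ± 0.23 (SD, n = 4) in restricted cows, a difference of 0.29 (95% interval -0.09 to 0.68, adjusted p = 0.492, exact permutation p = 0.171). CD109 was -0.79 ± 0.04 and -0.99 ± 0.17, a difference of 0.20 (-0.07 to 0.46, adjusted p = 0.495, exact permutation p = 0.114). ID1 went the other way, at -1.16 ± 0.17 and -0.89 ± 0.27, a difference of -0.27 (-0.61 to 0.08, adjusted p = 0.483, exact permutation p = 0.143). The groups overlapped for all 3 genes. Among all elements 0% passed in this comparison (0 of 8061 by limma, with 1043 at an unadjusted p under 0.05).

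After calving, in the mean of days 1, 14 and 28, the diets differed by 0.11 for FSTL3 (95% interval -0.41 to 0.63, adjusted p = 0.846, exact permutation p = 0.771). The difference was 0.09 for CD109 (-0.20 to 0.37, adjusted p = 0.756, exact permutation p = 0.629) and -0.02 for ID1 (-0.46 to 0.42, adjusted p = 0.965, exact permutation p = 0.914). The 8 cows leave room for differences up to those bounds, and with 4 cows against 4 an exact permutation test cannot give a p below 0.0286. Of all elements 10.4% passed in this comparison.

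On single days the share of elements called between diets was 0% on days -65, -30, 28 and 49 (limma, with 285, 77, 93 and 48 elements at an unadjusted p under 0.05), 6.08% on day -14, 10.7% on day 1 and 15.3% on day 14. The difference of FSTL3 was widest on day -14. There the ad libitum cows had log2 ratios of -0.68, 0.32, 0.17 and -0.48, and the restricted cows -1.45, -1.21, -0.35 and -0.41. The groups overlapped, with the 2 highest values in ad libitum and the 2 lowest in restricted cows. The difference was 0.69 ± 0.37 (SE; 95% interval -0.05 to 1.42, adjusted p = 0.244 by limma). Its direction turned with the dye. With liver in Cy3 the ad libitum mean was -0.94 and the restricted mean -0.75, and in Cy5 they were 0.60 and -0.96. CD109 differed by 0.27 ± 0.26 (SE) on that day and ID1 by -0.06 ± 0.30. The largest single-day difference of ID1 was -0.47 ± 0.30 on day -30 (95% interval -1.08 to 0.13, adjusted p = 0.999 by limma). That of CD109 was -0.46 ± 0.28 on day -65, the start of the dry period (-1.02 to 0.10, adjusted p = 0.9999 by limma).

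**Figure D4:**
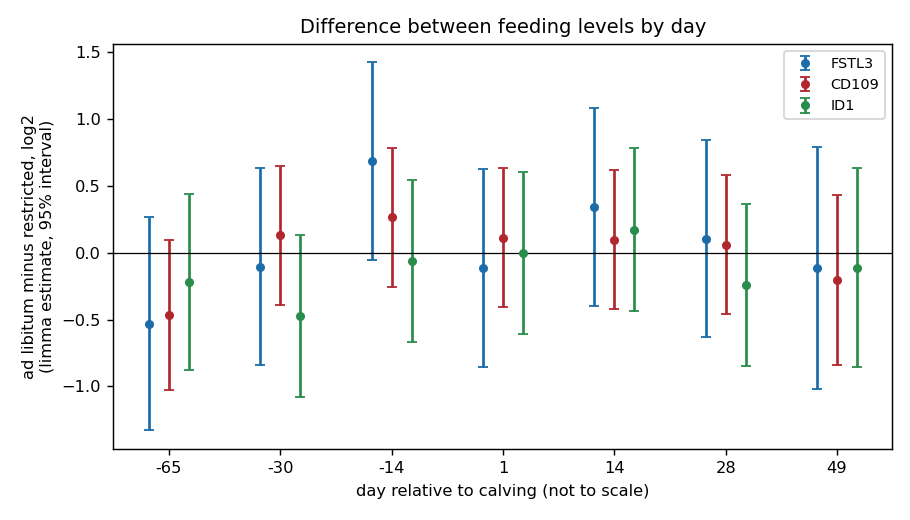
Difference between feeding levels, ad libitum minus restricted, on the log2 scale (vertical axis) by day relative to calving (horizontal axis, evenly spaced) for FSTL3, CD109 and ID1. Points are limma estimates and bars 95% intervals; every interval includes 0, and the FSTL3 estimate of day -14 is the highest at 0.69.

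The change over the dry period was also set against diet. FSTL3 was higher on day -14 than on day -65 by 2.62 ± 0.40 (SD, n = 3) in ad libitum cows, between 2.16 and 2.92, and by 1.57 ± 0.46 (SD, n = 4) in restricted cows, between 0.88 and 1.91. The limma interaction, which also uses the ad libitum cow that had no sample on day -65, was 1.22 ± 0.53 (SE; 95% interval 0.14 to 2.30). Its unadjusted p was 0.0279 and its adjusted p 0.218, so it did not pass over 8061 elements, of which 1.3% did. It combines a difference between the diet groups of 0.69 ± 0.37 (SE) on day -14 with an opposite one of -0.53 ± 0.40 on day -65 (95% interval -1.33 to 0.27). The latter day lies at the start of the dry period. With liver in Cy3 alone the interaction was 0.139 (adjusted p = 0.929), and in Cy5 alone 2.30 (adjusted p = 0.117). CD109 was higher by 2.39 ± 0.49 in ad libitum and 1.54 ± 0.74 in restricted cows (interaction 0.73 ± 0.38 SE, adjusted p = 0.299 by limma). That interaction was 0.0657 without the samples whose orientations correlated below 0.6 (adjusted p = 0.981) and 0.504 to 1.02 with 1 cow left out. ID1 was higher by 1.60 ± 0.53 and 1.46 ± 0.51 (0.16 ± 0.44, adjusted p = 0.863). For the change from day -14 to day 28, the interactions were -0.58 ± 0.51 (SE), -0.21 ± 0.36 and -0.18 ± 0.42 for FSTL3, CD109 and ID1, and 0% of all elements passed (0 by limma, with 678 at an unadjusted p under 0.05).

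Over all 53 samples the 3 genes moved together, with Pearson correlations of 0.815 between FSTL3 and CD109, 0.832 between FSTL3 and ID1 and 0.793 between CD109 and ID1. Most of this was the shared difference between days. The genes were chosen on such differences, so the pooled correlations follow from the choice and are not a test. Among 5261 other elements, ID1 and CD109 ranked 13 and 24 by correlation with FSTL3. By correlation with CD109, FSTL3 and ID1 ranked 24 and 40, and by correlation with ID1, FSTL3 and CD109 ranked 43 and 87. After subtracting the mean of each diet and day, the correlations were 0.223, 0.383 and 0.272. The 3 values of a sample come from the same arrays, and the part of array-wide compression in these correlations was not tested. With liver in Cy3 the pooled values were 0.833, 0.863 and 0.878, and with liver in Cy5 0.492, 0.686 and 0.432.

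The element closest to ID1 was that of H1-3, a linker histone, with r = 0.970 over 53 samples and 0.890 within groups. H1-2, a second linker histone, followed with r = 0.929 and 0.670 within groups. The likeness of ID1 and H1-3 was present in both orientations, at 0.977 in Cy3 and 0.893 in Cy5. H1-3 differed by 1.46 ± 0.21 (SE) between days -65 and -14 and by -1.64 ± 0.20 between days -14 and 28, where ID1 differed by 1.54 ± 0.22 and -1.78 ± 0.21. PLEKHM2, FOSL2 and LAMA5 came next, at 0.912, 0.905 and 0.904. FOSL2 had 3 elements, and another of them correlated at -0.20. The names rest on the platform annotation of each spotted cDNA, and whether the ID1 element also captures transcripts of other genes was not tested.

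FSTL3 was most like LAMA5, a laminin chain (r = 0.885), SPN, a leukocyte sialoglycoprotein (0.873), SPIRE1, an actin nucleator (0.864), PEG10 (0.860) and ANKRD33B (0.852). SPIRE1 had 3 elements, of which the lowest correlated at 0.40. Within groups these 5 values were 0.55, 0.59, 0.42, 0.50 and 0.55. CD109 was most like the kinase MAP4K4 (0.905), SPN (0.895), cyclin F (CCNF, 0.891), the inositol phosphatase INPP5D (0.885) and LAMA5 (0.851). A second element of MAP4K4 correlated with CD109 at 0.12. Within groups the values for CD109 lay between 0.43 (LAMA5) and 0.69 (CCNF). The lowest correlations were those of CD80 (-0.824), TRANK1 (-0.808) and the bile acid transporter SLC10A1 (-0.804) with FSTL3, of TRANK1 (-0.817), FZD4 (-0.814) and LIFR (-0.799) with CD109, and of LIFR (-0.855), RASSF6 (-0.852) and TRANK1 (-0.846) with ID1. Within groups these were weaker, at -0.39, -0.09 and -0.24 for FSTL3, -0.15, -0.19 and -0.30 for CD109, and -0.33, -0.49 and -0.12 for ID1. A second element of TRANK1 correlated at -0.52, -0.61 and -0.53 with FSTL3, CD109 and ID1. LAMA5 and TRANK1 were thus named for all 3 genes. LAMA5 had 4 elements, of which the lowest correlated at 0.74, 0.69 and 0.74 with FSTL3, CD109 and ID1. Correlations were taken over 5261 other complete elements with 1 symbol, whose median r was 0.10 with FSTL3, 0.10 with CD109 and 0.06 with ID1. Values above 0.8 were reached by 34, 37 and 73 elements.

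Of 118 other genes listed around the TGF-beta family, 39 had a tested element. On day -14, 11 of the 39 had risen against day -65 and 0 had fallen (limma, adjusted p under 0.05), or 28.2% and 0% beside 17.9% and 13.8% of all elements. At an unadjusted p under 0.05, 14 of the 39 were higher and 1 was lower. The median difference of the 39 was 0.22, and that of all elements 0.05. The 11 that rose had day -65 means below the median element, between -4.83 (TIMP1) and -0.29 (ID3). Low elements as a whole moved toward 0 on day -14, and the part of this compression in the count was not tested. From day -14 to day 1 none of the 39 passed in either direction by limma (1 higher and 1 lower at an unadjusted p under 0.05), and on day 28 against day -14 0 rose and 5 fell, or 12.8% beside 12.6% of all elements (1 higher and 12 lower at an unadjusted p under 0.05). The count of genes that rose on day -14 was 7 without cow 6886, 7 without cow 7187 and 5 without the 20 samples whose orientations correlated below 0.6, and it was 24 without centring. With each array also scaled, or with the agreement of orientations as a covariate, 1 gene fell.

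**Figure D5:**
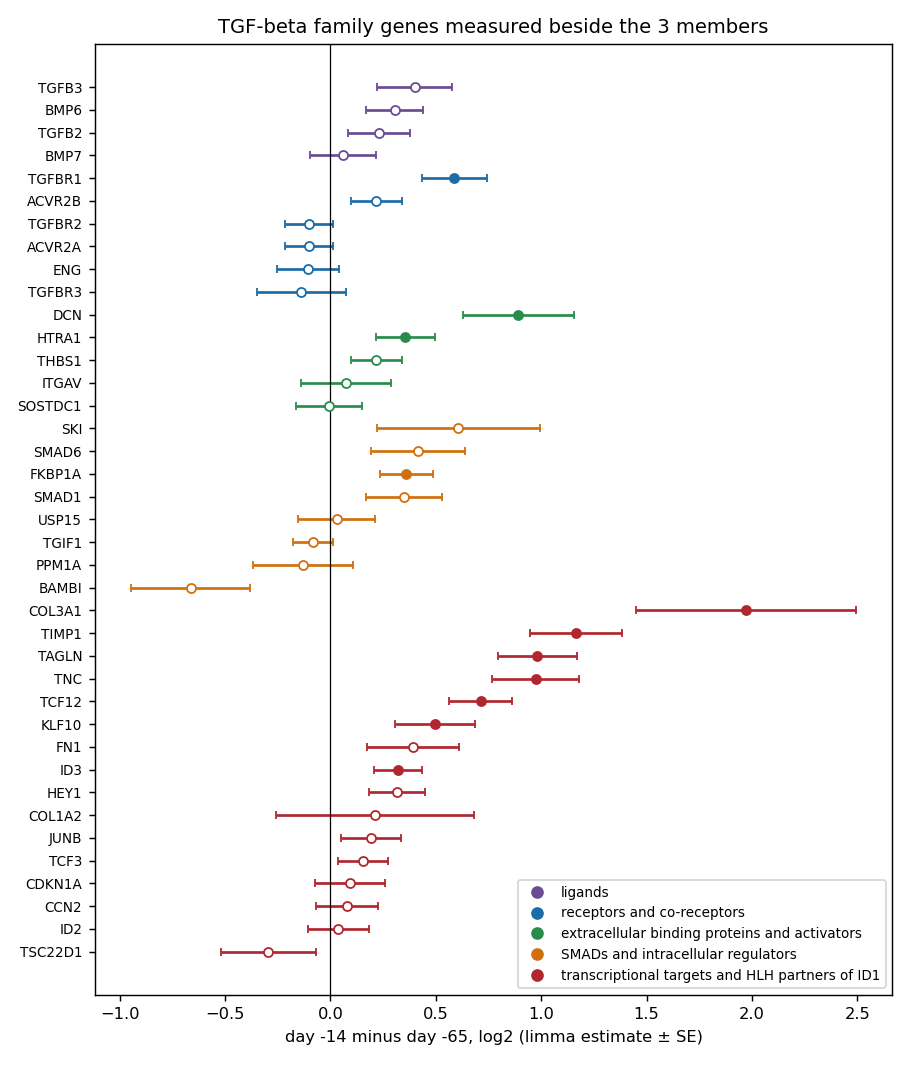
Difference between day -14 and day -65 on the log2 scale (horizontal axis) for 39 TGF-beta family genes (vertical axis) other than the 3 members, coloured by role. Points are limma estimates and bars SE, filled where the adjusted p was under 0.05. To the right of 0 lie 11 filled points and to the left none. Of the 11, 7 belong to the role of transcriptional targets of the family and helix-loop-helix partners of ID1.

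None of the 4 ligands with a tested element passed on day -14 against day -65. BMP6, a BMP that in mice controls hepatic iron signalling, differed by 0.31 ± 0.13 (SE; adjusted p = 0.0765 by limma), TGFB3 by 0.40 ± 0.18 (0.0796), TGFB2 by 0.23 ± 0.15 (0.235) and BMP7 by 0.06 ± 0.16 (0.818). Activin subunits, which make the ligands that FSTL3 binds, had no tested element under their listed symbols. Among 6 receptors, TGFBR1, the type I receptor for TGF-beta, rose by 0.59 ± 0.15 (SE; adjusted p = 0.00358). The activin type II receptors ACVR2B and ACVR2A differed by 0.22 ± 0.12 and -0.10 ± 0.11 without passing. The 2 elements of TGFBR2, the type II receptor for TGF-beta, disagreed, at -0.10 ± 0.11 (adjusted p = 0.543) and 0.37 ± 0.14 (adjusted p = 0.0419).

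Among 5 extracellular binding proteins and activators, decorin (DCN), a matrix proteoglycan that binds TGF-beta, rose by 0.89 ± 0.26 (SE; adjusted p = 0.00946 by limma), and the secreted protease HTRA1 by 0.36 ± 0.14 (0.0471). THBS1, which can activate latent TGF-beta, and the integrin chain ITGAV differed by 0.22 ± 0.12 and 0.07 ± 0.21 and did not pass. Among 8 SMADs and intracellular regulators, FKBP1A, which binds type I receptors, rose by 0.36 ± 0.13 (adjusted p = 0.0262), and its second element by 0.37 ± 0.13 (0.0242). BAMBI, a decoy receptor, differed by -0.66 ± 0.28 (adjusted p = 0.0664), SMAD1, which carries BMP signals, by 0.35 ± 0.18 and the inhibitory SMAD6 by 0.41 ± 0.22, none of them passing.

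Among 16 genes that are either transcriptional targets of TGF-beta family signals or helix-loop-helix partners of ID1, 7 rose on day -14. TIMP1, an inhibitor of matrix proteases, rose by 1.16 ± 0.22 (SE; adjusted p = 8.1e-05 by limma) and the actin-associated TAGLN by 0.98 ± 0.19 (0.000122). The matrix protein tenascin C (TNC) rose by 0.97 ± 0.21 (0.000387), and by 2.26 ± 0.25 on its second element. TCF12, an E protein that ID proteins bind, rose by 0.71 ± 0.15 (0.000354), whereas its second element differed by 0.14 ± 0.20 without passing. COL3A1, ID3 and KLF10 rose by 1.97, 0.32 and 0.49. Among the 9 that did not pass, COL1A2 differed by 0.21 ± 0.47 (SE; adjusted p = 0.774 by limma). Its second element differed by 1.05 ± 0.53 (0.128). CCN2 had means of -2.12 on day -65 and -2.04 on day -14, CDKN1A of -0.54 and -0.46, and FN1 of -0.01 and 0.38. ID2, the third ID gene tested, differed by 0.04 ± 0.15. A second element of TSC22D1 rose by 0.44 (adjusted p = 0.0407), while the element counted for this gene differed by -0.29 without passing. TAGLN, TNC, TIMP1 and TCF12 fell again by 1.10, 1.05, 1.03 and 0.62 from day -14 to day 28, and so did HEY1, a BMP and Notch target, which fell by 0.39. The second element of HEY1 differed by 0.09 on day 28 and did not pass.

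Between diets, 3 of the 39 genes were called on day -14, or 7.69% beside 6.08% of all elements. On day 1, on day 14 and after calving 1 gene each was called, or 2.56% beside 10.7%, 15.3% and 10.4% of all elements. On day -14, endoglin (ENG), a co-receptor of endothelial cells, was lower by 0.70 ± 0.20 (SE; adjusted p = 0.032 by limma) in ad libitum than in restricted cows, FKBP1A by 0.56 ± 0.17 (0.0417) and JUNB by 0.87 ± 0.20 (0.00751). TGIF1, a SMAD corepressor, was higher in ad libitum cows by 0.43 ± 0.13 (0.0288) on day 1 and TNC by 1.17 ± 0.28 (0.00529) on day 14. SMAD6 was higher by 0.68 ± 0.13 (0.00522) in the mean of days 1, 14 and 28. FKBP1A, JUNB and TNC had 2 elements each, and their diet values are given for the counted element alone. The other diet comparisons, both interactions included, held no call among the 39 (limma, with 0 to 6 genes at an unadjusted p under 0.05).

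Markers of cell types were compared on the same days. Of 17 hepatocyte markers 3 had a tested element, and they were high in liver, with day -65 log2 ratios of 6.08 for SLC10A1, 5.57 for transferrin (TF) and 1.07 for APOA1. SLC10A1 and TF fell by 1.82 and 1.45 to day -14, and the mean of the 3 markers in a sample lay between 2.80 and 4.19 on days -14, 1 and 14 and between 3.62 and 4.54 on the other days. Of 13 stellate cell and fibroblast markers 7 were measured. DCN, THY1, TAGLN, COL3A1 and VIM rose on day -14, of which DCN, TAGLN and COL3A1 are also counted among the 39 genes above. The stellate cell markers that rose had day -65 means between -4.86 (VIM) and -0.94 (THY1). The mean of the 7 lay between -2.52 and -0.34 on days -14, 1 and 14 and between -2.62 and -0.72 on the other days. Of 6 endothelial markers 1 rose and 3 fell, of 10 macrophage markers 1 rose and 3 fell, and of 4 T and NK cell markers 1 rose. Of 3 cholangiocyte markers 1 fell, the single platelet marker did not pass, and none of the 6 red blood cell markers listed had a tested element. Among all elements 17.9% were called higher and 13.8% lower in this comparison. On day 28 against day -14, beside 10.5% higher and 12.6% lower over all elements, 2 of the 3 hepatocyte markers rose and 3 of the 7 stellate cell markers fell. Of the endothelial markers 3 rose and 1 fell, of the macrophage markers 2 rose and 1 fell, 1 cholangiocyte marker rose, and no T and NK cell or platelet marker passed. The part of these cell types in the members' course was not tested. Over all elements, ratios at both ends of the scale leaned toward 0 on day -14. The part of this compression in the marker counts was not tested.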

How the data were processed

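For each of 16416 spots on each of 106 arrays, the authors deposited a log2 ratio (Cy5 to Cy3). Per the labels' protocols, images were processed with GenePix 4.0; the sources used here name no background correction or normalization. The log base was inferred from the values, since exact values of 1 and -1 were 3.93 and 12.5 times as frequent as their neighbours. Array medians lay between -1.69 and 1.80. Spot intensities were not used here, and the number of arrays limits the precision.

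Ratios were turned to liver over reference by the dye in each title (the longer text of 4 arrays names the other dye). In 53 of 53 samples both arrays correlated negatively as deposited. The 2 spots of an element were averaged, arrays centred on their median, and both orientations averaged as 1 sample. An element needed 2 cows in each of 14 groups, which left 8061 of 8208. The fits used R 4.3.3 with statmod 1.5.0 and limma 3.58.1. They had 14 group means and a random block for the cow, whose label pairs its samples over days (correlation within cows 0.0176); the periods before and after calving used 1 value per cow. P-values were two-sided and adjusted by Benjamini-Hochberg over all elements, with a threshold of 0.05; exact permutations were over cows. The fits were checked on simulated data.

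Symbols came from the platform annotation: 5598 elements had 1, 95 several and 2515 none. No build is given for the array, so no coordinates are printed. A gene with 2 elements is counted by the more complete one. Named were the 3 members; up to 4 genes per role with the smallest p on day -14 against day -65; genes called between diets; and, for each member, the 5 highest and 3 lowest correlations. COL3A1, ID3, KLF10, HEY1, ID2, TSC22D1, COL1A2, CCN2, CDKN1A, FN1 and single markers were named after their values were seen. The members and all lists were chosen with earlier results of these data known.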

Additional observations from a re-analysis of the deposited data

How the results depend on the processing

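The number of cows and the differences between dye orientations limit the precision of all values. The members' differences of day -14 from day -65 and of day 28 from day -14 kept their sign under all 19 alternatives; their other differences between days, and the diet differences on single days, were fitted in 1 setting. Without centring, the median of all elements moved by 0.54 from day -65 to day -14 and by -0.61 from day -14 to day 28, and 98.4% and 0.954% of calls were then higher, against 56.5% and 45.6% with it. CD109 then changed by 2.40 and -2.24, ID1 by 2.02 and -2.40, and FSTL3 by -2.52 to day 28, but relative to those medians FSTL3, CD109 and ID1 changed by 2.12, 1.86 and 1.48, and by -1.91, -1.62 and -1.79. From day -14 to day 28 CD109 changed by -1.21 without samples whose orientations correlated under 0.6, and ID1 by -2.36 in Cy3 and -1.20 in Cy5.

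No diet difference of a member before calving, after calving or in the 2 interactions passed under any alternative run. The values that turned sign follow, and sizes also moved without a turn: the interaction to day -14 was 0.139 in Cy3 and 2.30 in Cy5 for FSTL3, and 0.0657 for CD109 without samples correlated under 0.6. In Cy3 alone FSTL3 differed by -0.21 before calving and CD109 by -0.0782 and ID1 by 0.107 after it. The interaction from day -14 to day 28 became 0.10 for FSTL3 and 0.17 for ID1 in Cy3, 0.34 for CD109 in Cy5, and 0.0176 for ID1 without centring. The interaction from day -65 to day -14 became -0.17 for ID1 in Cy3 and -0.0464 with scaled arrays. Without samples correlated under 0.6, the interaction to day 28 was 0.15 for CD109 and 0.19 for ID1, and that to day -14 was -0.0606 for ID1. That alternative removed every ad libitum cow of day 1, so neither day 1 against day -14 nor the diets after calving could be fitted. With agreement as a covariate the difference after calving was -0.00428 for CD109 and 0.0664 for ID1. Without samples correlated under 0.7 once constant dye differences were removed, an alternative chosen after seeing the data, ID1 differed by 0.17 after calving, and the interaction of CD109 to day 28 was 0.0202. Leaving out 1 cow at a time, the difference after calving was -0.0838 to 0.314 for FSTL3, -0.025 to 0.181 for CD109 and -0.14 to 0.129 for ID1. The interaction to day 28 was -0.466 to 0.0809 for CD109, and that to day -14 was -0.0456 to 0.387 for ID1.

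Of the 39 other genes, 7 to 12 rose and 0 to 1 fell on day -14 when 1 cow was left out, with 1 falling without cow 6877 or 7105. On day 28, 0 to 1 rose (1 without cow 7105) and 4 to 8 fell (8 without cow 7050). On day -14, 24 rose without centring and 5 without samples correlated under 0.6; 1 fell with scaling and 1 with the covariate. On day 28, 30 fell without centring, 17 with scaling, 11 in Cy3 and 8 over complete elements, while 2 rose with scaling and 1 in Cy3. Over all elements, 2559 were called on day -14 against day -65, with 1265 without samples correlated under 0.6 and 1459 to 2927 leaving out 1 cow (the lowest without cow 7187). Across calving 32 were called, with 0 to 45 under the other alternatives and 3 to 96 leaving out 1 cow. On day 28 against day -14 1861 were called, with 4821 without centring, 3257 in Cy3, 990 in Cy5, 745 without samples correlated under 0.6 and 1094 to 2606 leaving out 1 cow. The cause was not tested. With cow as a fixed replicate block, FSTL3, CD109 and ID1 changed by 2.19, 1.91 and 1.58 to day -14, and with no replicate block by 2.17, 1.91 and 1.54. The members' differences between days carry no call, and their interactions of diet and day passed under neither setting.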
